A study of Homo sapiens with 13 samples.

Results

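Wnt ligands, Frizzled receptors and the proteins that carry or restrain their signal inside the cell were followed across 3 bone-metastatic lung carcinoma lines and their control cells. The set was a list of 36 named genes. A gene entered when a probe set of the deposited table names it and no other gene, and where there were several the one with the brightest average signal was used. By this rule 32 of the 36 genes were analysed, among 11963 genes in all. WNT3 and FZD8 were left out because the probe set of each also names another gene. PORCN, which acylates Wnt ligands, and AXIN2, a target and feedback inhibitor of beta-catenin signalling, had no probe set of their own in the table and were not analysed here.

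The cells are human non-small cell lung carcinoma cells, and their RNA was measured on 13 Affymetrix arrays. The metastatic lines M1, M4 and M5 have 3 arrays each. Per the labels, control cells were injected into the heart of mice, cells that had colonised bone were recovered as lines, and each line was tested by injection into new mice. The control cells, described by the submitters as not metastatic, are of 2 kinds, with a luciferase reporter (2 arrays) and without it (2 arrays). Control below is the mean of both kinds. Which kind of control was injected for which line is not stated, so a difference from control sets a line against both kinds and not against a known parent. The lines are cells that have passed through a mouse, and the control cells are not described as having done so. Each array held a pool of 3 groups of cells. Replicates are labelled biological, and all p-values measure only the spread between these arrays, whose small number limits the precision.

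Wnt proteins are secreted lipid-modified ligands that bind Frizzled receptors, with LRP5 or LRP6 as co-receptors. Dishevelled proteins pass the signal to the destruction complex built on axin, which otherwise marks beta-catenin for degradation, and beta-catenin then acts with TCF and LEF factors that TLE and CTBP corepressors keep silent. Some ligands and receptors act without beta-catenin, through RYK, ROR receptors and the kinases upstream of JUN, and steer cell polarity and movement. In bone, Wnt signalling drives the formation and activity of osteoblasts, and secreted antagonists such as DKK1 restrain it.

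All signals are log2 values, and each difference is a difference of log2 signals. The labelled carcinoma origin was checked on epithelial genes. KRT7, KRT8, KRT18 and KRT19 lay above the median of their own array on 13 of 13 arrays, whereas EPCAM and CDH1 lay below its lower quartile on 13. Of the 3 measured lung lineage genes, SFTPC lay above the median of its array on 13 arrays, SFTPB on 3 and NKX2-1 on 0. Of the measured markers of other cells, 3 of 4 endothelial (VWF, CDH5 and KDR), 2 of 5 haematopoietic (PTPRC and CD3E), 1 of 3 osteoblast (ALPL) and 1 of 6 fibroblast genes (LUM) were below the lower quartile on all 13 arrays. The fibroblast genes COL1A1 and COL3A1 were above the median on all 13, and every other marker of these lists stayed below the median. Summed linear signals of the 6 fibroblast markers ranged from 565 to 2189 over the lines and from 667 to 908 over control, a spread carried by COL3A1 (log2 8.16 to 10.93 over the 13 arrays), and their part in the results below was not tested. The labels record no processing groups. The arrays were clustered on the 62 control probe sets of the array and cut into 4 sets, a number that was chosen. The first set holds both control replicates 1 and M1 replicate 2. The second holds both control replicates 2 and replicate 1 of each line, the third M1 replicate 3 with M4 replicates 2 and 3, and the fourth M5 replicates 2 and 3 alone. Over all genes the nearest array came from the same set for 13 of 13 arrays, and from the same group for 4. A fit with these sets as a block is given beside each call, and in it the value of M5 rests on M5 replicate 1, since set 4 holds nothing else. For M5 replicates 2 and 3, line and array set cannot be told apart. Their upper quartiles of signal, 7.86 and 7.95, were below the 7.99 to 8.12 of the other arrays, and their lower quartiles, 4.70 and 4.66, were above 4.41 to 4.56. The 3′ minus 5′ difference of the ACTB control probe sets, a measure of RNA integrity, was 0.15 and 0.11 on these 2 arrays, 0.11 to 0.30 in set 3 and -0.19 to -0.03 in sets 1 and 2. The part of these values in the results was not tested.

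FZD6 fell in M5 against control and was lower in M5 than in M1 and in M4. FZD2 also fell in M5. No other Wnt gene was called at an adjusted p under 0.05 in any line without the block. FZD6 is a Frizzled that acts mainly in planar cell polarity, the orientation of cells and hairs within a sheet, as known best from the mouse. It read 6.46, 5.62 and 5.70 in M5 replicates 1 to 3, 6.99, 7.03 and 6.88 in M4, 6.82, 6.84 and 6.84 in M1, 6.87 and 6.74 in control with luciferase, and 6.75 and 6.64 in control without it. All 3 M5 arrays were below all 10 others, but replicate 1 lay closer to the controls than to the other M5 arrays. All M5 arrays lay on one side of the controls alone for 12.2% of all genes, and the share set apart from all 10 was not counted. The mean was 5.93 ± 0.46 in M5 (SD, n = 3), against 6.75 ± 0.10 in control (n = 4).

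The difference of FZD6 between M5 and control was -0.82 ± 0.17 (limma's standard error, 95% interval -1.18 to -0.46), or 1.77-fold lower in M5, with an adjusted p of 0.0237. Against M1 it was -0.91 ± 0.18, 1.87-fold lower in M5, with an adjusted p of 0.0305, and against M4 -1.04 ± 0.18, 2.05-fold lower, with an adjusted p of 0.0102. In these populations of cells, fewer cells that express a gene and less RNA per cell cannot be told apart. With the array sets as a block the difference from control was -0.25 ± 0.12 and was not called (adjusted p 0.34), that from M1 was -0.34 (adjusted p 0.208) and that from M4 was -0.50 ± 0.13 (adjusted p 0.0817). Within set 2, where M5 replicate 1 stands beside the controls, the difference of FZD6 from them was -0.23 for M5, 0.30 for M4 and 0.13 for M1. Leaving out any 1 control array, or M5 replicate 2 or 3, ended the call against control, with adjusted p between 0.0683 and 0.135, while the difference stayed between -0.67 and -0.85. Without M5 replicate 1 it was -1.09 with an adjusted p of 4.11e-05. The call against M4 was lost without M4 replicate 2 or M5 replicate 3 (adjusted p 0.0642 and 0.0624), and that against M1 held only without M4 replicate 1 or M5 replicate 1.

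FZD2, a receptor of WNT5A that can signal without beta-catenin, read 7.41, 7.37 and 7.59 in M5, 7.74, 7.71 and 7.61 in M4, 7.59, 7.86 and 7.53 in M1, 8.10 and 7.88 in control with luciferase, and 7.94 and 7.84 in control without it. All M5 and all M4 arrays were below all 4 controls, while M1 replicate 2 lay among them. M5 averaged 7.45 ± 0.11 (SD, n = 3) and control 7.94 ± 0.11 (n = 4). The difference was -0.49 ± 0.11 (95% interval -0.72 to -0.25), 1.40-fold lower in M5, with an adjusted p of 0.0374. It was not called in M4 (-0.25, adjusted p 0.682), in M1 (-0.28, adjusted p 1.00) or in the mean of the lines (-0.34 ± 0.09, adjusted p 0.266). Unlike that of FZD6, the FZD2 value of M5 replicate 1 lay between those of replicates 2 and 3: it differed by -0.45 from the controls of its own set, and the block gave -0.43 ± 0.12 (adjusted p 0.121). Within that set the difference was -0.12 for M4 and -0.27 for M1, and within set 1 it was -0.16 for M1. The call rests on a narrow margin, since quantile normalization gave -0.41 with an adjusted p of 0.113. It held without M5 replicate 1, M1 replicate 2 or M1 replicate 3 and was lost without any of the other 10 arrays, with adjusted p between 0.0512 and 0.163. FZD6 and FZD2 have 1 probe set each.

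**Figure D1:**
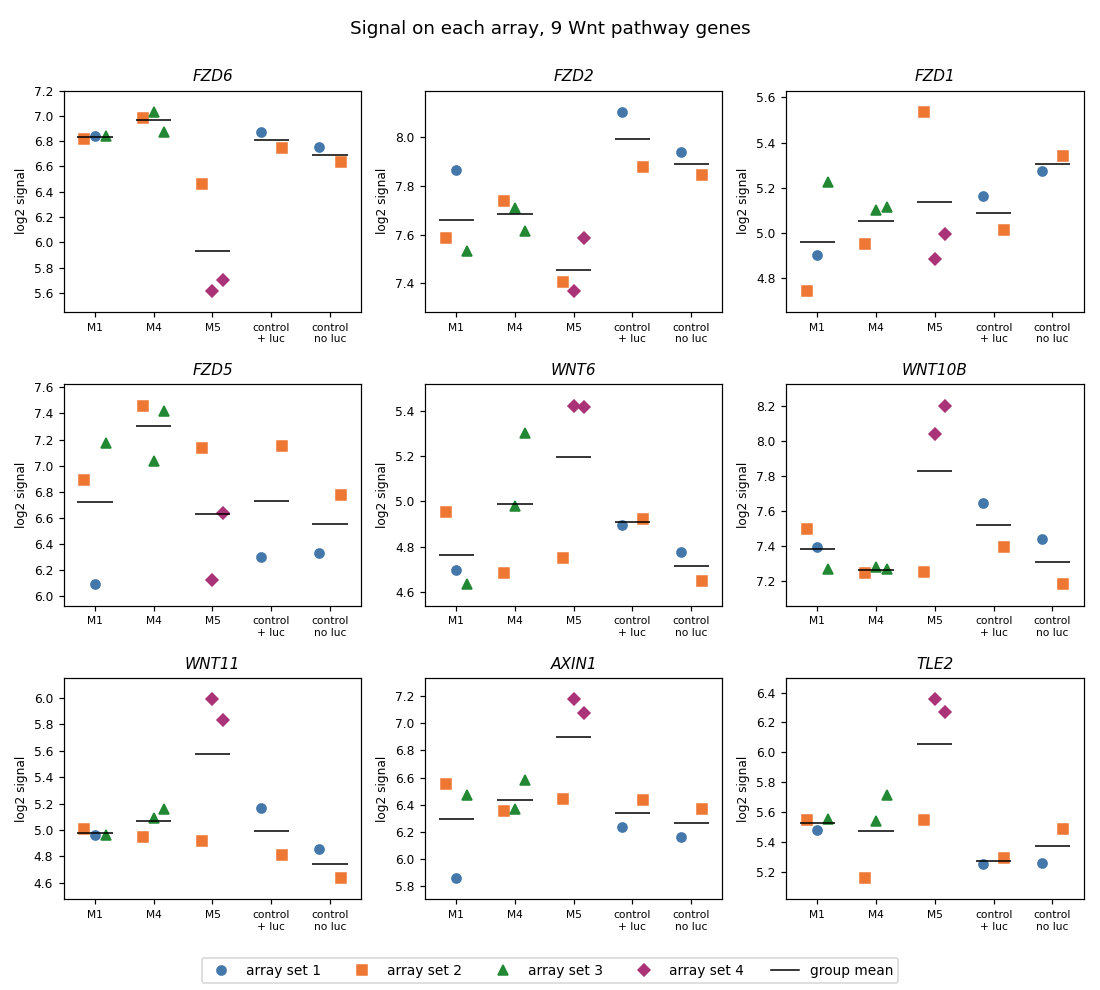
Log2 RMA signal of the named Wnt genes on each of the 13 arrays, one panel per gene, with the lines M1, M4 and M5 left of the controls, array sets marked and a bar at each group mean. FZD6 is lower on the 3 M5 arrays than on the 10 others, and FZD2 is lower on the M4 and M5 arrays than on the 4 control arrays.

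In numbers, 2 of the 32 genes were called in M5 against control, both lower, where 2.37% of all genes were called in either direction and 1.85% lower. Of the 32, 10 had an unadjusted p under 0.05, against 18% of all genes. With the block 0 were called, where 1.98% of all genes were, and 6 had an unadjusted p under 0.05, against 15.3% of all genes. M5 against M1 gave 1 call, FZD6, beside 1.23% of all genes, and M5 against M4 also 1, FZD6, beside 2.16%.

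FZD1, a close paralog of FZD2 and FZD7 and a receptor of the beta-catenin branch, was called only when the array sets were a block. It read 5.54, 4.88 and 4.99 in M5, 4.95, 5.10 and 5.11 in M4, 4.74, 4.90 and 5.23 in M1, 5.16 and 5.01 in control with luciferase, and 5.27 and 5.34 in control without it. M5 replicate 1 was the highest of the 13 arrays and M5 replicates 2 and 3 were below every control. In the fit with the block, FZD1 was 0.69 ± 0.14 higher in M5 than in M1 (1.62-fold, adjusted p 0.035) and 0.68 ± 0.14 higher than in M4 (1.60-fold, adjusted p 0.042). These were the only calls among the 32 genes in that fit, where 1.61% of all genes were called against M1 and 1.85% against M4. Both rest on M5 replicate 1, which was 0.36 above the controls of its set, beside differences of -0.23 for M4 and -0.43 for M1 there. Without the block the differences were 0.18 (adjusted p 0.641) and 0.08 (adjusted p 0.844). The other FZD1 probe set did not follow the one used (r = -0.14 over the 13 arrays, which share array sets). It differed from control by 0.31 and 0.24 on M5 replicates 2 and 3.

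The start of FZD1 is shown because this receptor carries the calls of the blocked fit. Those of AXIN1 and WNT6 are shown because their signals, given below, were high on M5 replicates 2 and 3, where FZD1 was below all controls. For FZD1 and WNT6 this holds on the probe set used and not on all their probe sets. AXIN1 and WNT6 are 2 of the 13 Wnt genes, of 32, above all controls on both of these arrays, beside 3274 of all 11963 genes. The sequences are the 250 bases upstream of the start in RefSeq on GRCh38.p14, written 5′ to 3′ on the strand of the gene, with each CpG in capitals: FZD1 at chr7:91264183-91264432 (plus strand), AXIN1 at chr16:352724-352973 (minus strand) and WNT6 at chr2:218859555-218859804 (plus strand).
FZD1: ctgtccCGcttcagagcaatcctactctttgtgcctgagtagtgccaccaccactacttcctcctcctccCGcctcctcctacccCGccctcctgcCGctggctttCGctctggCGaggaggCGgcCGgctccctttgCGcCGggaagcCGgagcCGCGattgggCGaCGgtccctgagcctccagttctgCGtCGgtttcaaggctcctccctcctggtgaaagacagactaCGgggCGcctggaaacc
AXIN1: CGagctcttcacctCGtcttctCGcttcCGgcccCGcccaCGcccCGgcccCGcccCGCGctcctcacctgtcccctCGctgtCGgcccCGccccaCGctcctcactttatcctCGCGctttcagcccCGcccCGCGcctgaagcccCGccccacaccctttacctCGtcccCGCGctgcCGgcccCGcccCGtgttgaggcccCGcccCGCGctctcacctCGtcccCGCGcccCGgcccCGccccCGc
WNT6: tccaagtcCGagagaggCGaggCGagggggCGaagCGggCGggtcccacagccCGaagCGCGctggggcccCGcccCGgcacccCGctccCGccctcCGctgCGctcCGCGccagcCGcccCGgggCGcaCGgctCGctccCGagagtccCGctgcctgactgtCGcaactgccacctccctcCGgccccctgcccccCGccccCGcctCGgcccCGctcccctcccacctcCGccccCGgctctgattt
The FZD1 window has 19 CpG and 65.2% G and C, that of AXIN1 35 CpG and 77.6%, and that of WNT6 32 CpG and 79.2%, while the medians of all 35114 promoters in the table are 11 CpG and 58.0%. The letters to which TCF and LEF factors bind, searched on both strands as CTTTG followed by a pair of letters that are each A or T, occur in none of these 3 windows. They occur in 3 of the 33 listed starts of the 20 analysed genes in the table that could be shown (1 start each of CSNK1E, CTBP2 and TCF7L2), against 12.0% of all promoters of the same length. A match is only a run of letters, and its absence here says nothing of sites elsewhere.

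Among the other Frizzled genes none was called. FZD5, a receptor of WNT5A and of ligands of the beta-catenin branch, had the largest difference of the 32 genes in M4 without the block, a place that TLE3 took with the block (0.36). It read 7.46, 7.03 and 7.42 in M4, 7.13, 6.13 and 6.63 in M5, 6.89, 6.09 and 7.18 in M1, 6.30 and 7.15 in control with luciferase, and 6.33 and 6.77 in control without it. M4 overlapped the controls, and the difference of 0.66 ± 0.29 was not called (adjusted p 0.696). All 3 arrays of set 1, from M1 and both controls, were between 6.09 and 6.33, and with the block the difference was 0.26. The other FZD5 probe set did not follow it (r = -0.32).

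FZD7, FZD4 and FZD9 were not selected by the naming rule but picked out once their values were known. FZD7, the Frizzled of mouse intestinal stem cells, read 7.57, 6.30 and 6.71 in M5, against 7.19 and 7.36 in control with luciferase and 7.05 and 7.33 in control without it. The M5 arrays lay on both sides of the controls (-0.37 ± 0.23, adjusted p 0.413). FZD4, the receptor of norrin in retinal vessels, was the only gene of the 32 with all 3 M1 arrays outside the range of the 4 controls, a separation seen in 5.94% of all genes. It read 6.41, 6.25 and 6.24 in M1, against 6.06 and 6.04 in control with luciferase and 5.94 and 6.14 in control without it, and was not called. FZD9 was above all controls on the 3 M4 arrays, at 5.79, 5.86 and 5.79 against 5.65 and 5.53 in control with luciferase and 5.66 and 5.42 in control without it. FZD3, which guides axons in the mouse, ranged from 3.74 to 4.30 over all arrays.

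The co-receptors were not called in any comparison. LRP5, in which inherited loss of function lowers bone mass in people, had the lowest adjusted p of the 32 genes in the blocked fit of M5 against control, at -0.51 ± 0.14 (adjusted p 0.0954), and a difference of 0.09 ± 0.18 without the block. It read 5.18, 5.93 and 5.99 in M5, against 5.54 and 5.75 in control with luciferase and 5.44 and 5.74 in control without it, so that M5 replicate 1 was below and replicates 2 and 3 above every control. LRP6, its paralog, showed the same arrangement, from 5.21 on M5 replicate 1 to 6.09 on M5 replicate 2, against 5.98 and 5.55 in control with luciferase and 5.75 and 5.60 in control without it, with M5 replicate 3 only just above the highest control. The other LRP6 probe set did not follow it (r = -0.09) and differed from control by -0.14 and -0.22 on M5 replicates 2 and 3. LRP5 and LRP6 were chosen after their values were seen.

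**Figure D2:**
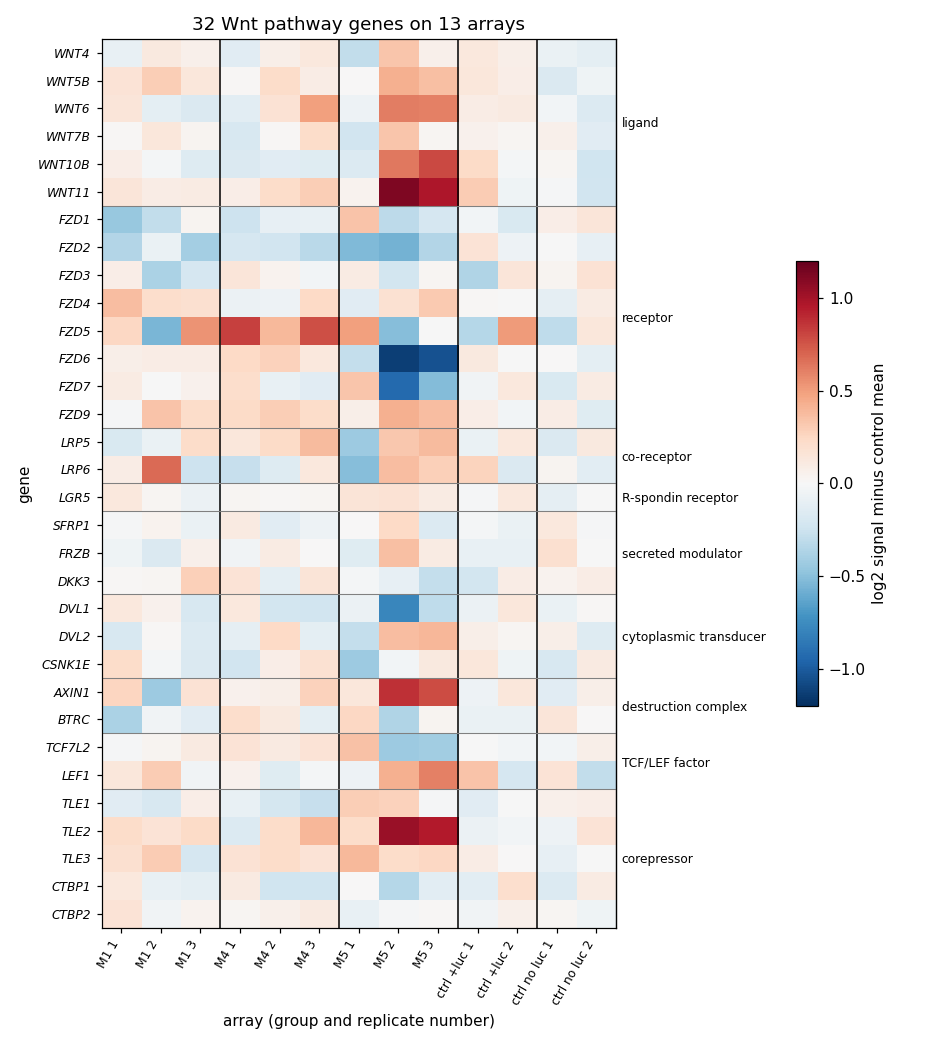
Difference of each of the 32 Wnt genes on each array from the mean of control, in log2, with genes in rows by role and arrays in columns, lines left of controls. The strongest colours lie on M5 replicates 2 and 3 (among them FZD6, WNT11 and TLE2) and in FZD5 on M4 arrays.

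Of the 6 ligands none was called, and the 3 with the largest ranges of group means were WNT11, WNT10B and WNT6. WNT11, which acts mainly without beta-catenin in cell movements of the embryo, read 4.91, 5.99 and 5.83 in M5, 4.95, 5.09 and 5.16 in M4, 5.01, 4.96 and 4.96 in M1, 5.17 and 4.81 in control with luciferase, and 4.85 and 4.63 in control without it. M5 replicates 2 and 3 were above the 11 other arrays and replicate 1 lay among the controls. The difference in M5 was 0.71 ± 0.21 (adjusted p 0.0976), and 0.14 with the block.

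WNT10B, a ligand of the beta-catenin branch that raises bone mass in the mouse, read 7.25, 8.04 and 8.20 in M5, 7.24, 7.28 and 7.27 in M4, 7.50, 7.39 and 7.26 in M1, 7.64 and 7.39 in control with luciferase, and 7.44 and 7.18 in control without it. M5 replicates 2 and 3 again stood above the other arrays (0.42 ± 0.19, adjusted p 0.265, and -0.09 with the block). WNT6, a ligand of epithelia in development, read 4.75, 5.42 and 5.42 in M5, 4.68, 4.98 and 5.30 in M4, 4.95, 4.70 and 4.63 in M1, 4.90 and 4.92 in control with luciferase, and 4.78 and 4.65 in control without it. The M5 difference was 0.39 ± 0.18 (adjusted p 0.281), and M4 replicate 3 was nearly as high as the 2 high M5 arrays. The other probe sets of WNT6 differed by -0.06, 0.04 and 0.09 between M5 and control. WNT4, WNT5B and WNT7B were dim.

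The secreted modulators SFRP1, FRZB and DKK3 and the R-spondin receptor LGR5, a stem cell marker of the mouse intestine, were dim as well. SFRP1 and FRZB are decoys that hold Wnt proteins away from Frizzled, and DKK3 is a divergent member of the Dickkopf family. Together with WNT4, WNT5B, WNT7B and FZD3 they make 8 of the 32 genes with a mean under 4.52, the lower quartile of all gene means. On all 13 arrays SFRP1 stayed between 3.80 and 4.20, FRZB between 3.46 and 3.99, DKK3 between 3.69 and 4.27 and LGR5 between 3.67 and 3.95. At such signals an array separates a low level poorly from background, and no difference was called in either fit of all 13 arrays. Without M5 replicate 1, a fit described below, WNT5B was called higher in M5 than in control (0.39, adjusted p 0.0135).

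Inside the cell, no transducer and no part of the destruction complex was called. AXIN1, the scaffold that brings beta-catenin to its kinases, read 6.44, 7.18 and 7.08 in M5, 6.35, 6.37 and 6.58 in M4, 6.56, 5.86 and 6.47 in M1, 6.24 and 6.43 in control with luciferase, and 6.16 and 6.37 in control without it. All 3 M5 arrays were above the 4 controls, replicate 1 by the narrowest of margins. The difference of 0.60 ± 0.19 had an adjusted p of 0.138 and was -0.04 with the block. BTRC, the ubiquitin ligase subunit that recognises phosphorylated beta-catenin, averaged 5.26 ± 0.31 in M5, 5.35 ± 0.17 in M4 and 5.10 ± 0.18 in M1 (n = 3 each), against 5.28 ± 0.11 in control (n = 4). Its other probe sets did not follow the one used (r = -0.33 and -0.13). They differed by 0.28 and 0.13 between M5 and control and were not called. CSNK1E, a kinase of Dishevelled, averaged 5.77 ± 0.28 in M5, 5.90 ± 0.22 in M4 and 5.90 ± 0.20 in M1, against 5.89 ± 0.15 in control. The Dishevelled genes were picked out once their values were known. On M5 replicates 2 and 3 DVL1 lay below all controls and DVL2 above them. DVL1 read 7.58, 6.87 and 7.35 in M5, against 7.58 and 7.79 in control with luciferase and 7.57 and 7.67 in control without it. DVL2 read 7.28, 7.93 and 7.97 in M5, against 7.64 and 7.59 in control with luciferase and 7.64 and 7.41 in control without it.

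Of the nuclear genes the corepressor TLE2 came closest to a call. TLE2, a Groucho protein that TCF and LEF factors recruit to silence targets, read 5.54, 6.35 and 6.27 in M5, 5.16, 5.54 and 5.71 in M4, 5.54, 5.48 and 5.55 in M1, 5.25 and 5.29 in control with luciferase, and 5.26 and 5.49 in control without it. All M5 arrays were above all controls, and the difference was 0.74 ± 0.18 (adjusted p 0.0571). Under quantile normalization it was called (0.74 ± 0.17, adjusted p 0.0387), and with the block it was 0.19. The other TLE2 probe set gave -0.02 in M5. TLE3, chosen after its values were seen, was also above all controls on all M5 arrays (7.12, 6.96 and 6.98, against 6.82 and 6.73 in control with luciferase and 6.63 and 6.73 in control without it), with a difference of 0.29 ± 0.12 (adjusted p 0.232) and 0.43 ± 0.15 with the block (adjusted p 0.18). Its other probe sets gave 0.37 and -0.18. TLE1 averaged 4.95 ± 0.18 in M5, 4.57 ± 0.09 in M4 and 4.69 ± 0.14 in M1, against 4.77 ± 0.10 in control.

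TCF7L2, a main partner of beta-catenin that is often written TCF4 although another gene bears that symbol, read 8.53, 7.74 and 7.76 in M5, 8.34, 8.29 and 8.34 in M4 and 8.16, 8.21 and 8.29 in M1, against 8.17 and 8.15 in control with luciferase and 8.15 and 8.25 in control without it. M5 replicate 1 was the highest and M5 replicates 2 and 3 the lowest of the 13 arrays, and all M4 arrays were above all controls. Its other probe sets did not all follow: on M5 replicates 2 and 3 one differed from control by 0.78 and 0.51 (r = -0.57 with the probe set used) and another by 0.11 and 0.11, while one differed by -0.27 and -0.45 (r = 0.87). LEF1, which shares its DNA-binding domain, read 5.74, 6.23 and 6.40 in M5, against 6.14 and 5.60 in control with luciferase and 5.97 and 5.51 in control without it. In both kinds of control the array of set 1 was the higher. TCF7L2 and LEF1 were chosen after their values were seen. Group means of the corepressors CTBP1 and CTBP2 spanned 0.19 and 0.096 on the probe sets used. Another CTBP2 probe set differed by -0.34 between M5 and control, with 0.60 on M5 replicate 1 against the controls of its set and -0.98 and -0.57 on replicates 2 and 3 against all controls, and was not called.

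**Figure D3:**
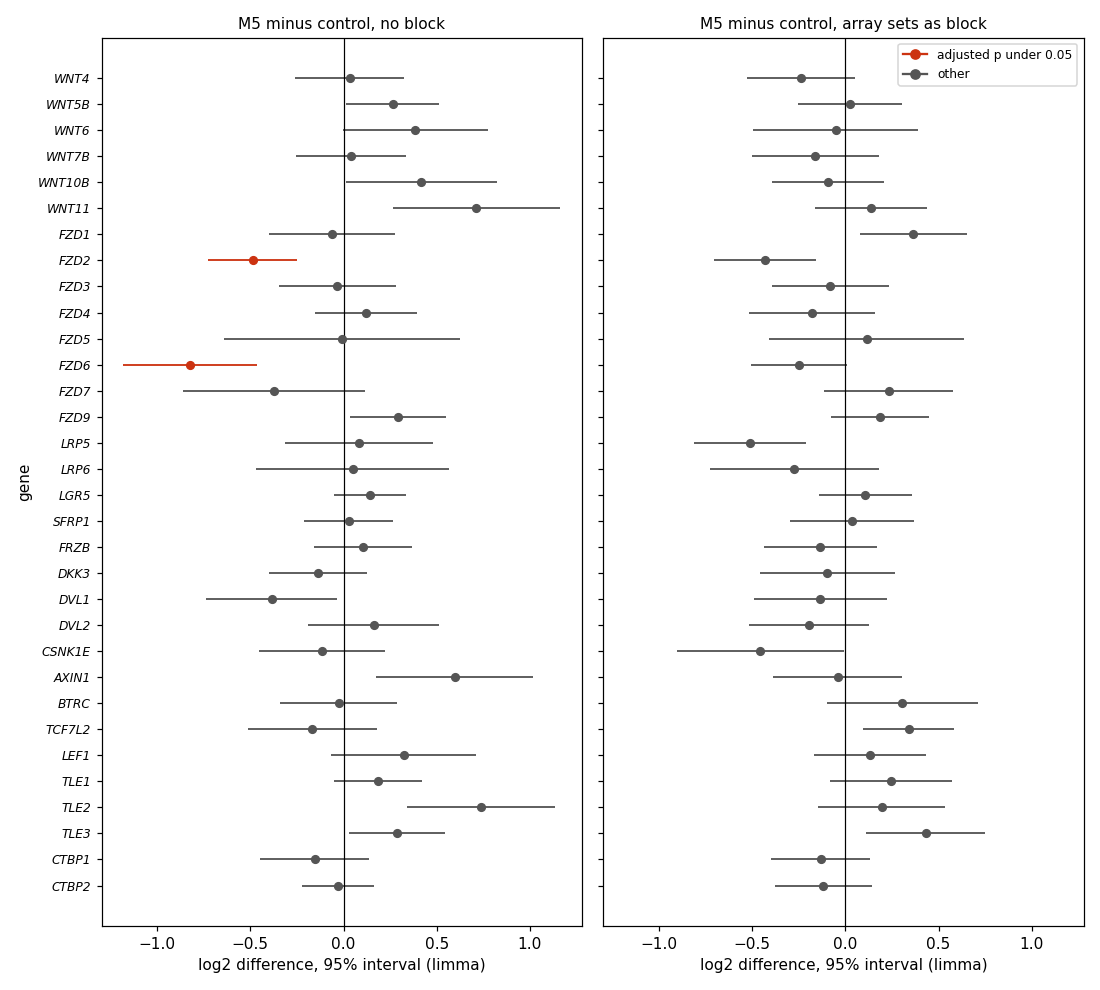
Log2 difference of each Wnt gene between M5 and control with its 95% interval, from the fit without a block and from the fit with array sets as a block. FZD6 is at -0.82 without the block and -0.25 with it, and FZD2 at -0.49 and -0.43.

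M5 replicate 1 stood apart from the other M5 arrays for many of the genes, though not for all: FZD2 had an SD of 0.11 in M5 and 0.11 in control. M5 replicates 2 and 3 were both outside the range of the 4 controls, on the same side, for 19 of the 32 genes (13 above and 6 below), or 59.4%, and for 48.5% of all genes (3274 above and 2525 below, of 11963). M5 replicate 1 was on the same side for 5 of the 19: FZD2, FZD6, AXIN1, TLE2 and TLE3. It lay within the range of the controls for 7: WNT5B, WNT6, WNT10B, WNT11, FZD9, DVL1 and LEF1. It lay outside on the opposite side for the other 7: FZD1, FZD4, FZD7, LRP5, LRP6, DVL2 and TCF7L2. Among all genes the replicate 1 array was within the control range for 2560 of 5799, on the opposite side for 1782 and on the same side for 1457.

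Without M5 replicate 1 the count in M5 against control was 14 of 32, 9 higher and 5 lower, beside 25.6% of all genes, and the counts were 10 against M1, beside 19.8%, and 8 against M4, beside 20.4%. Those higher than control included WNT11 (1.05), TLE2 (0.99), AXIN1 (0.83) and WNT10B (0.71), and those lower FZD6 (-1.09), FZD7 (-0.73) and DVL1 (-0.54). M5 is then represented only by the 2 arrays of set 4. In the same fit 2 genes were called in the mean of the lines, WNT11 (0.45, adjusted p 0.0227) and TLE2 (0.45, adjusted p 0.0347), beside 2.44% of all genes.

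**Figure D4:**
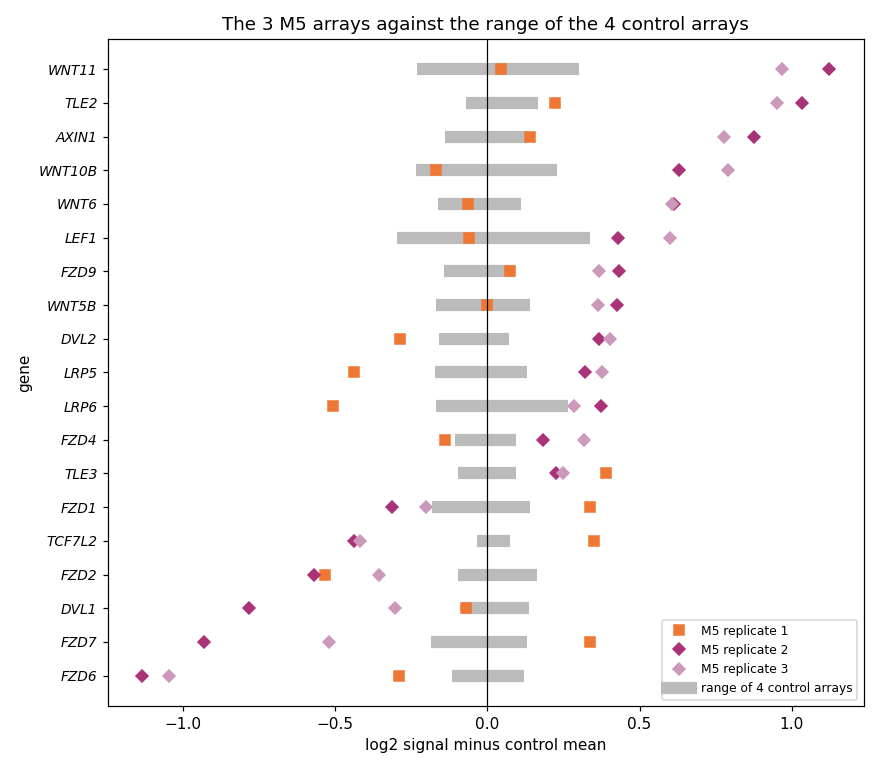
Difference from the mean of control on M5 replicates 1, 2 and 3, in log2, for the 19 Wnt genes with replicates 2 and 3 both outside the range of the 4 control arrays, which is drawn as a grey bar. Replicate 1 lies on the opposite side of that range for 7 of the 19 genes.

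Outside M5, limma called 0 of the 32 genes, and no other tool was run. In the mean of the lines 0 were called beside 0.0251% of all genes, and 3 had an unadjusted p under 0.05 beside 8.16%. In M1 0 were called beside 0.0251%, and 1 had an unadjusted p under 0.05 beside 3.08%. In M4 0 were called beside 0.092%, and 2 had an unadjusted p under 0.05 beside 6.91%. Between M4 and M1 0 were called beside 0.0251%, and 0 had an unadjusted p under 0.05 beside 2.83%.

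With the array sets as a block 0 were called in each of these comparisons too. In the mean of the lines 0.527% of all genes were called, and 6 of the 32 had an unadjusted p under 0.05 beside 9.69%. In M1 0.234% of all genes were called, and 6 of the 32 had an unadjusted p under 0.05 beside 9.51%. In M4 0.15% were called, with 4 of the 32 beside 7.01% at an unadjusted p under 0.05, and between M4 and M1 0.117%, with 2 of the 32 beside 4.84%. The comparisons with control share the same 4 control arrays. Without the block the medians over the 32 genes were 0.05 in M5, 0.03 in M4 and 0.03 in M1, beside medians over all genes of 0.03, -0.001 and -0.008. With the block the median turned to -0.07 in M5 and was 0.03 in M4 and 0.03 in M1, beside -0.02, -0.01 and -0.02 over all genes. The differences without the block ran from -0.25 (FZD2) to 0.66 (FZD5) in M4 and from -0.28 (FZD2) to 0.26 (FZD4) in M1. With it they ran from -0.31 (FZD1) to 0.36 (TLE3) in M4 and from -0.33 (FZD1) to 0.27 (LRP6) in M1.

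All 3 arrays of a line lay outside the range of the 4 controls, on one side, for 5 genes in M5, 6 in M4 and 1 in M1, beside 12.2%, 11.4% and 5.94% of all genes. In M4 these were FZD2 below the controls and FZD6, FZD9, LRP5, TCF7L2 and TLE3 above them. No Wnt gene had all 9 line arrays on one side of all 4 controls, beside 0.602% of all genes. The luciferase reporter gave 0 calls, beside 0% of all genes, and 0 genes at an unadjusted p under 0.05 beside 1.29%. With the block it gave 0 beside 0.0167%. The differences between control with and without it ran from -0.22 (FZD1) to 0.24 (WNT11).

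Other genes of the Wnt pathway were measured for 61 of 79 listed symbols. In M5 against control 3 of the 61 were called, all lower, or 4.92%, beside 2.37% of all genes. At an unadjusted p under 0.05 there were 15, or 24.6%, beside 18% of all genes. In the mean of the lines, M1 and M4 the count was 0, beside 0.0251%, 0.0251% and 0.092% of all genes. There 7, 1 and 6 had an unadjusted p under 0.05, or 11.5%, 1.64% and 9.84%, beside 8.16%, 3.08% and 6.91% of all genes. DKK1, the secreted antagonist that binds LRP5 and LRP6, read 8.57, 8.34 and 8.32 in M5, against 9.55 and 9.32 in control with luciferase and 8.93 and 9.18 in control without it. M5 and control did not overlap, and DKK1 fell in M5 (-0.84 ± 0.18, 1.79-fold lower, adjusted p 0.0287, and -0.54 with an adjusted p of 0.277 with the block). It read 8.81, 8.70 and 8.64 in M4, also below all controls, and 8.78, 9.62 and 8.89 in M1, which overlapped them, and was called in neither. Within set 2 its difference from the controls was -0.68 for M5, -0.44 for M4 and -0.47 for M1. In set 1 the DKK1 difference was 0.38 for M1 replicate 2.

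RYK, a Wnt receptor related to tyrosine kinases, read 8.03, 7.16 and 7.32 in M5, against 8.48 and 8.33 in control with luciferase and 8.36 and 8.51 in control without it (-0.92 ± 0.20, 1.89-fold lower, adjusted p 0.0306, and -0.43 with an adjusted p of 0.158 with the block). Its 3 M5 arrays were below all controls. RYK read 8.57, 8.07 and 8.01 in M4 and 8.37, 8.20 and 8.03 in M1. Replicates 2 and 3 of both lines were also below all controls, and RYK was called in neither line. JUN, an AP-1 factor downstream of the beta-catenin-independent branch and of many other signals, was listed here among the response genes of the pathway. It read 6.70, 6.98 and 7.25 in M5, against 7.48 and 7.43 in control with luciferase and 7.81 and 7.49 in control without it. All M4 arrays were also below all controls, at 7.10, 7.40 and 7.32. M1 read 7.41, 7.40 and 7.47 and overlapped the controls. JUN was called in neither line. The difference of JUN between M5 and control was -0.58 ± 0.13 (1.49-fold lower, adjusted p 0.0426). JUN was the one of the 3 genes also called with the block, at -0.79 ± 0.14 (adjusted p 0.0239). That value rests on M5 replicate 1, the lowest of the 3 M5 arrays, which differed by -0.76 from the controls of its set. Among the 61 genes JUN was the only blocked call there, or 1.64%, beside 1.98% of all genes. CD44, an adhesion receptor and target of beta-catenin, was called only between M5 and M4 with the block (0.82 ± 0.18, adjusted p 0.0488), and differed by 0.20 (adjusted p 0.678) without it. That blocked call was 1.64% of the 61 genes, beside 1.85% of all genes. It rests on M5 replicate 1, at 10.46 beside 9.62 for M4 replicate 1 in the same set. M5 replicates 2 and 3, at 9.78 and 10.03, lay within the 9.62 to 10.19 of M4.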

How the data were processed

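The deposited values are on the log2 scale for 22277 probe sets. The authors computed them with RMA, according to the submitters' processing notes. Its version and any other steps are not given in the sources consulted. Scanned images were not analysed here. The 62 control probe sets were set apart. Genes came from the platform annotation: 19064 probe sets name 1 gene, 1043 several and 2108 none, and the brightest probe set on average stood for each of 11963 genes.

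All 13 arrays and 5 groups were fitted with limma (3.58.1, R 4.3.3; lmFit, eBayes), with Benjamini-Hochberg adjustment over all genes and calls at an adjusted p under 0.05, in 8 comparisons. A difference carries the moderated standard error from limma, and a signal its SD. The members, the lists and the array sets (Ward clustering) were chosen with earlier results of these data known. Values on every array were given for members called in either fit and for the 8 with the largest range of group means. Alternatives were a replicate block, other probe set choices, quantile normalization, median centring, a filter on dim genes, a trend with a robust prior, other sets of arrays and leaving out each array. The code was tested on simulated data. Promoters came from RefSeq (GRCh38.p14).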

Additional observations from a re-analysis of the deposited data

Results flagged for a closer look

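The contrast of FZD6 with control differed between lines, as tested directly: M5 was below M1 by a log2 difference of -0.91 (adjusted p 0.0305) and below M4 by -1.04 (adjusted p 0.0102), with 3 of 3 M5 arrays below all arrays of both lines. With the array sets as a block these were -0.34 and -0.50, and neither was called. FZD1 differed between lines only with that block, by 0.69 between M5 and M1 (adjusted p 0.035) and by 0.68 between M5 and M4 (adjusted p 0.042), with 1 of 3 M5 arrays above all M1 and M4 arrays.

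The 4 control arrays of each of the 32 genes were searched for an array far from the others. In 2 genes one was found: WNT7B read 4.02 on control without luciferase replicate 2, and DKK3 read 3.75 on control with luciferase replicate 1. Chance gives about 1 in 20 such groups, and both genes are dim.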

How the results depend on the processing

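The count of 0 Wnt genes called in the mean of the lines, M1, M4, M4 against M1 and the luciferase comparison was 0 under every alternative with all arrays, and leaving out each array in turn gave 0 to 2 in the mean of the lines and 0 to 0 in the other 4. The count of 2 in M5 against control was 0 with array sets as a block, with a replicate block, with only the arrays compared, with control with luciferase alone, with control without luciferase alone, with M5 represented by its first array and with sets from the spike-in probe sets as a block. It was 1 with the most variable probe set, 2 (FZD6 and TLE2) under quantile normalization, and 0 to 14 leaving out each array. The counts of 1 in M5 against M1 and M5 against M4 were 0 with only the arrays compared, with the first M5 array and with the spike-in sets, and 0 to 10 and 0 to 8 leaving out each array. The last 2 of these alternatives were chosen after seeing the data. With array sets as a block the gene called was FZD1 in place of FZD6. FZD1 turned to -0.022 between M5 and M4 under quantile normalization, and without M5 replicate 1 to -0.018 against M1 and -0.12 against M4. Over the arrays left out, FZD6 in M5 ran from -1.09 to -0.67 against control, -1.17 to -0.75 against M1 and -1.30 to -0.88 against M4, with 7, 2 and 11 of 13 fits called, FZD2 from -0.55 to -0.43 with 3 called, and FZD1 from -0.02 to 0.31 against M1 and -0.12 to 0.21 against M4. The replicate numbers did not pair the arrays (7 of 23 same-numbered pairs had r over 0.1, range -0.51 to 0.53), and with the replicate block FZD6 was -0.77 (adjusted p 0.0605) and FZD2 -0.48 (adjusted p 0.119). Over all genes, 284 were called in M5 against control, against 106 with the replicate block, 29 with only the arrays compared and 54 to 3062 leaving out each array. The cause was not tested. Dim signals limit 8 of the 32 genes.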
